A study of Mus musculus with 6 samples.

Results

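The phase II conjugation enzymes attach glucuronic acid, sulfate or glutathione to drugs, dietary compounds, bile pigments and products of lipid oxidation, which makes them easier to excrete. Enzymes of the classes Ugt1 and Ugt2 (UDP-glucuronosyltransferases), Sult (sulfotransferases), Gsta to Gstz (cytosolic or mitochondrial glutathione transferases) and Mgst (membrane-bound microsomal transferases) were taken by gene symbol, and a gene was kept as a member when it had at least 20 UMIs over all libraries, with no regard to the labels. Of the 32285 features that were counted, 65 had a matching symbol and 46 were members, namely 7 Ugt1, 7 Ugt2, 8 Sult, 21 Gst and 3 Mgst genes. The 19 other matching symbols had fewer than 20 UMIs. A unique molecular identifier (UMI) marks 1 captured RNA molecule, and levels are given as UMIs per 1000000 UMIs (CPM). They are not divided by gene length, so they are compared between cells and labels and not between genes. A member was called where its Benjamini-Hochberg adjusted p, over all genes tested, was under 0.05 in edgeR's quasi-likelihood test on UMIs summed per library and cell class.

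In the small intestine these enzymes sit mainly in the absorptive enterocytes, where they meet compounds taken up from food before these reach the portal blood. Glucuronidation takes place in the endoplasmic reticulum and uses UDP-glucuronate. Sulfation uses the sulfate donor PAPS, and the glutathione transferases use reduced glutathione, which the cell makes from cysteine through the enzyme that Gclc and Gclm encode. Transporters of the Abcc family and Abcg2 then carry many of the conjugates out of the cell.

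The libraries were 3 from IE-HuR-/- mice, in which a villin-Cre transgene deletes the floxed HuR gene Elavl1 in intestinal epithelium only, and 3 from HuR fl/fl littermates without Cre, which the labels call wild-type. All mice were of C57BL/6 background and 6 to 8 weeks old, and food was withheld for 24 h according to the methods, whereas the labels give normal feeding. Each library held dissociated small intestinal epithelium, and the study describes its values as means over 3 animals, although no label ties a library to an animal. There were 60706 barcodes and 428980031 UMIs, with 59518012 to 91818560 UMIs per library, and the members held 2140148 UMIs, or 0.499% of all.

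Cells were assigned by gates on marker genes that contain none of the members. This gave 18696 enterocyte-like, 1492 goblet-like, 358 enteroendocrine-like, 179 tuft-like, 160 progenitor-like (stem and cycling markers) and 7056 T or NK-like cells, besides 123 fibroblast-like cells. Another 30163 cells, with a median of 723 to 1110 UMIs per cell in the libraries, passed no gate. The 63 Paneth-like cells were few and shallow, and levels in them are not given. The enterocyte markers summed to between 81870 and 88620 CPM in the enterocyte-like cells of the 6 libraries. Pairs of libraries shared 22 to 44 barcodes. In enterocyte-like cells Elavl1 had 25.9 to 28.1 CPM in the control libraries, after scaling by TMM factors (trimmed mean of M-values), and 31.0 to 31.8 CPM under the label IE-HuR-/- (log2 fold change 0.23, SE 0.0486, edgeR adjusted p = 0.000114). The RNA of the targeted gene was therefore not lower under that label. The UMIs may come from outside the deleted part, so that they check the labels only in part, and every direction below rests on the labels.

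Enterocyte-like cells held 83.7% of the members' UMIs, goblet-like cells 4.23% and T or NK-like cells 1.93%. These classes also differed in their RNA of all genes, with 294541222, 28157585 and 36546035 of the 428980031 UMIs. In the control libraries 33 members reached a mean of 5 CPM in enterocyte-like cells. Their levels in other classes were set beside the summed enterocyte markers, which are the genes of the enterocyte gate. RNA released from enterocytes can be captured with other cells, but its amount was not measured. In T or NK-like cells, which should lack most of these enzymes, the 33 members had a median of 19.7% of their enterocyte-like level, with quartiles of 18.3% and 24%, and the enterocyte markers had 17.2% of theirs. In goblet-like cells the median of the members was 53.5% and the markers stood at 61.8%, in tuft-like cells at 57.4% and 59.7%, and in enteroendocrine-like cells at 42.8% and 45.1%. In progenitor-like cells the members had a median of 44.7%, whereas the markers were at 5.65%. The part of free RNA, of attached enterocytes or of each class's own expression in the member and marker levels was not tested. The plot of levels by cell class shows which members depart from the marker row.

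**Figure D1:**
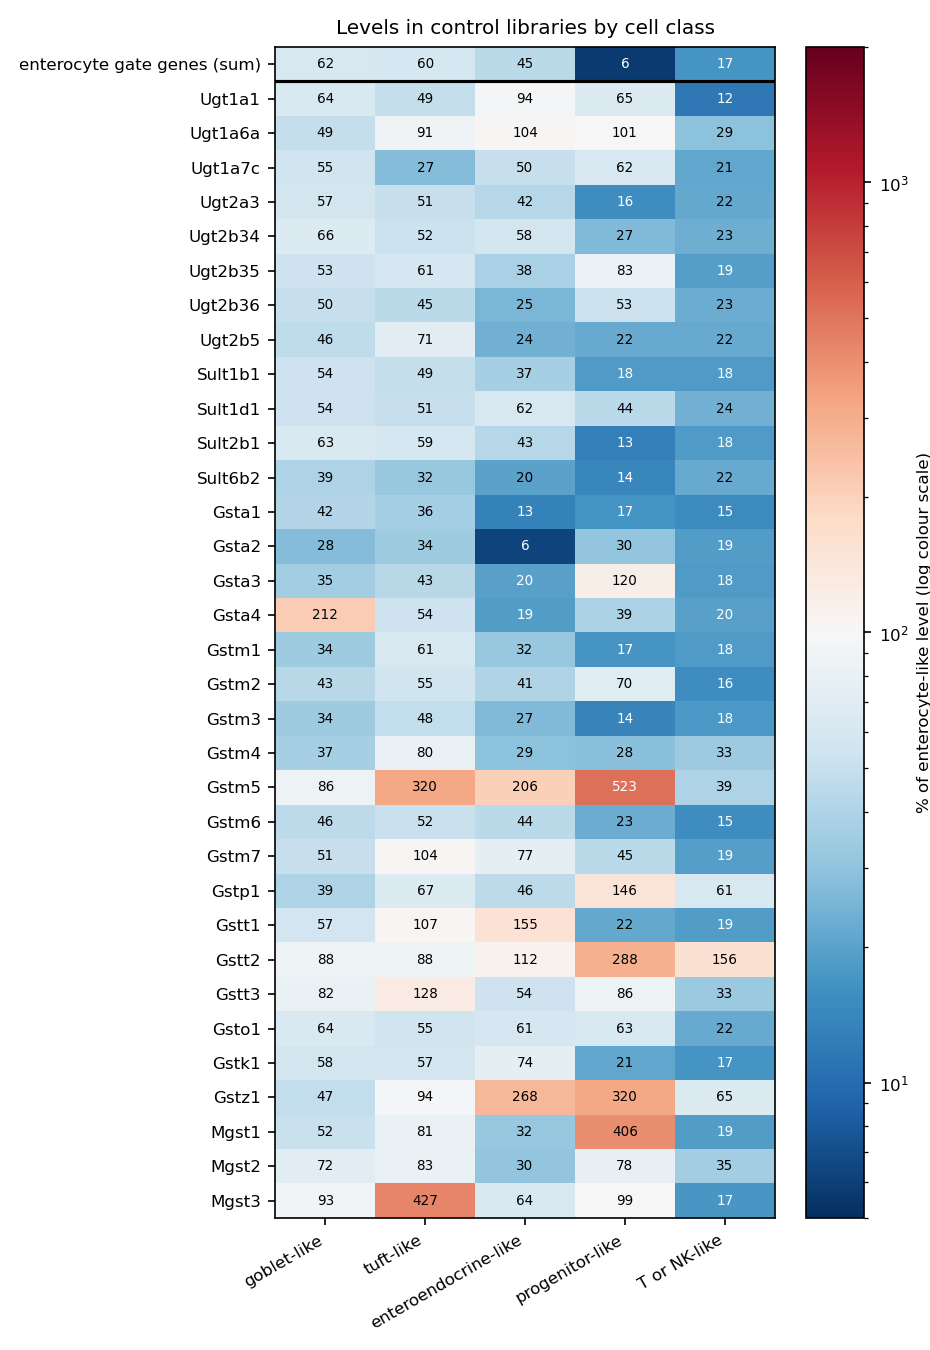
Mean CPM over the 3 control libraries in each cell class (columns) as a percentage of the mean in enterocyte-like cells, on a log colour scale, for the summed enterocyte gate genes (top row) and the 33 members with at least 5 CPM in enterocyte-like cells. Most members of the goblet, tuft and enteroendocrine columns lie near the top row. Others lie far above it, among them Gsta4 in goblet-like cells, Mgst3 and Gstm5 in tuft-like cells and Gstz1 in enteroendocrine-like cells. In the progenitor column all 33 members lie above the top row, with Gstm5, Mgst1, Gstz1 and Gstt2 the highest.

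Gsta4, a glutathione transferase known for its activity on 4-hydroxynonenal and related products of lipid peroxidation, was the 1 member of 39 tested that was called higher in goblet-like than in enterocyte-like cells. It had 237, 235 and 319 CPM in goblet-like cells of the control libraries and 275, 209 and 234 CPM in those labelled IE-HuR-/-, against a control mean of 124 ± 9.47 CPM (SD, n = 3) in enterocyte-like cells. The log2 difference was 1.13 (SE 0.0642, edgeR adjusted p = 7.18e-10), and its level in T or NK-like cells was 24.5 ± 4.44 CPM (SD, n = 3). Over all genes tested 25% were called higher and 25.8% lower in goblet-like cells, whereas 32 members were called lower. Ranked among members with at least 5 CPM in enterocyte-like cells, Gsta2 was lowest in goblet-like cells, at 27.5% of the enterocyte-like level. Gstm1 (34.2%), Gstm3 (34.3%) and Gsta3 (35%) came next.

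Tuft-like cells stood out for Mgst3, which encodes a microsomal transferase with glutathione peroxidase and leukotriene C4 synthase activity. It had 1904, 1751 and 1827 CPM in the control libraries and 1536, 1617 and 1766 CPM in the others, while enterocyte-like cells of the controls had 428 ± 31.5 CPM (SD, n = 3) and T or NK-like cells 74.3 ± 37.4 CPM. Every tuft-like value was thus far above every enterocyte-like one (log2 difference 1.76, SE 0.126, edgeR adjusted p = 4.43e-14). Gstm5, a class mu transferase, was at 33.7 ± 4.85 CPM in tuft-like and 10.5 ± 1.06 CPM in enterocyte-like cells of the controls (log2 difference 0.98, SE 0.174, adjusted p = 1.05e-05). Gstp3 was also called higher (1.06, SE 0.462, adjusted p = 0.0483) from 12 UMIs in the controls. That call was lost in 9 of the alternative fits, among them those without any 1 library other than IE-HuR-/- replicate 2 (0.78 to 1.23). Of 38 members tested 24 were called lower, beside 27.4% higher and 30.8% lower among all genes. Without scaling between sums, 4 members were called higher and 14 lower.

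In enteroendocrine-like cells Gsto2, which encodes an omega class transferase with dehydroascorbate reductase activity, had 3.53, 6.64 and 5.58 CPM in the control libraries and 8.15, 9.73 and 5.84 CPM in the others, from 23 UMIs under each label. In enterocyte-like cells it was at 0.161 ± 0.0832 CPM and in T or NK-like cells at 0.129 ± 0.118 CPM (SD, n = 3 control libraries), so that no value overlapped (log2 difference 4.66, SE 0.421, edgeR adjusted p = 1.02e-11). Gstz1, the maleylacetoacetate isomerase of tyrosine breakdown, was at 36.5 ± 5.67 CPM against 13.6 ± 0.628 CPM (log2 difference 1.02, SE 0.149, adjusted p = 5.21e-07). Ugt1a9 was called as well (3.34, SE 0.838, adjusted p = 0.000678), on 4 UMIs in enteroendocrine-like cells of the controls. Another 32 of the 39 members tested were called lower, led by Gsta2 at 6.29% of its enterocyte-like level. Among all genes 37.5% were called higher and 34.7% lower.

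Progenitor-like cells had the most members above enterocyte-like cells, 6 of 39 tested, beside 29 called lower, with 30.2% of all genes higher and 41.0% lower. Mgst1, the microsomal transferase that also reduces lipid hydroperoxides, had 419, 309 and 534 CPM in the control libraries and 172, 187 and 236 CPM in the libraries labelled IE-HuR-/-, against 103 ± 5.34 CPM in enterocyte-like cells of the controls (SD, n = 3). Its log2 difference between the classes was 1.06 (SE 0.143, edgeR adjusted p = 2.69e-08). Sult1c2, a sulfotransferase, was at 7.20 ± 2.89 CPM in progenitor-like and 0.303 ± 0.0505 CPM in enterocyte-like cells of the controls (3.75, SE 0.715, adjusted p = 1.52e-05), from 9 and 50 UMIs. Gstp3 (2.11), Gstm5 (0.97), Gstz1 (0.80) and Gstt2 (0.47) were the other members called higher. Of these, Gstz1 kept its call in every alternative fit. Gstp3, Gstm5 and Gstt2 were not called in the libraries labelled IE-HuR-/- alone (1.64, 0.44 and 0.41), where Sult1c2 did not pass the filter on low counts. Without control replicate 3 the calls of Gstm5 (0.78) and Gstt2 (0.33) were lost, and that of Gstm5 also without replicate 2 of either label (1.07 and 0.91). On unscaled CPM the class alpha and mu enzymes were spread widely in progenitor-like cells of the controls. They went from Gstm3 at 13.5%, Gsta1 at 16.6% and Gstm1 at 17.2% of the enterocyte-like level to Gstm2 at 70.3%, Gsta3 at 119.9% and Gstm5 at 523%. In the scaled fit over all libraries Gsta3 was called lower (log2 difference −1.20, SE 0.403, edgeR adjusted p = 0.0243). The median of all genes was −0.33 with scaling and 0.66 without it, so such percentages depend on the scaling.

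In T or NK-like cells 36 of 37 members tested were called lower than in enterocyte-like cells and 1 higher, beside 42.9% and 46.3% of all genes. Gstp3 was the exception (log2 difference 0.93, SE 0.305, edgeR adjusted p = 0.0161), and it was not called in the control libraries alone (0.18) or when replicate 2 (0.77) or replicate 3 (0.71) of the label IE-HuR-/- was left out. Gstt2, a theta class transferase, had 33.4 ± 1.60 CPM in T or NK-like and 21.4 ± 0.689 CPM in enterocyte-like cells of the controls. It was the only one of the 33 members above 100% in T or NK-like cells on the CPM scale, at 156%, yet it was called lower in the scaled fit, so its direction depends on the scaling (0.51 without it, where the median of all genes was at 1.04). Sult1a1, the phenol sulfotransferase, and Sult5a1 had higher levels in fibroblast-like than in enterocyte-like cells. Sult1a1 had 33.1 ± 7.04 CPM (SD, n = 3) from 23 UMIs in fibroblast-like cells and 0.0363 ± 0.0300 CPM in enterocyte-like cells of the controls. Sult5a1 had 46.4, 6.96 and 5.58 CPM in the 3 fibroblast-like sums, the first from 11 of its 14 UMIs there. In enterocyte-like cells of the controls it was at 0.0614 CPM, from 10 UMIs. Fibroblast-like cells also had 377 ± 11.5 CPM of Mgst1 and 147 ± 43.6 CPM of Gstm2. No test was run on them because of the few cells.

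Along the villus, the enterocyte-like cells were split by 6 genes of the villus tip after each cell had been thinned to 2000 UMIs. Cells with at least 10 tip UMIs made up 23.5% to 25.5% of enterocyte-like cells in the control libraries and 32.3% to 36.2% in those labelled IE-HuR-/-. Cells with at most 3 tip UMIs made up 48.9% to 52.6% and 41.7% to 43.9%. These are ranges of a score and not cell types, and 1034 cells lay within 1 UMI of the upper limit. Nearly all members were lower in the cells with many tip UMIs. Of 37 tested 33 were called lower and 2 higher, beside 42.1% and 36.6% of all genes.

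The largest gradient was that of Gstp3 at a low level, from 3.70 ± 0.337 to 0.156 ± 0.135 CPM (log2 difference −4.04, SE 0.427, edgeR adjusted p = 3.16e-06). Among the abundant members the class alpha and mu genes Gsta1 and Gstm3 came next. Gsta1 had 1533, 1384 and 1378 CPM in cells with few tip UMIs of the control libraries and 85.7, 82.1 and 101 CPM in cells with many (log2 difference −3.42, SE 0.116, edgeR adjusted p = 9.75e-10). Gstm3 went from 1011 ± 58.5 to 70.3 ± 8.42 CPM (−3.38) and Gstm1 from 1116 ± 58.3 to 103 ± 15.8 CPM (−2.81; SD, n = 3 control libraries). Mgst1 went from 174 ± 10.1 to 17.9 ± 2.08 CPM (−2.92), and Gsta4 from 203 ± 12.4 to 29.4 ± 6.34 CPM (−2.62). In the Ugt2 cluster the gradients of neighbours differed in size. Ugt2b36 had a log2 difference of −3.07, Ugt2b5 of −2.89 and Ugt2a3 of −1.79, but Ugt2b34 of −0.40, from 709 ± 33.6 to 451 ± 11.3 CPM.

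The sulfotransferases Sult1b1 (−0.56) and Sult1d1 (−0.57) had shallow gradients. Sult2b1, which sulfates cholesterol, was at 365 ± 8.87 and 267 ± 6.56 CPM in the control libraries, lower in cells with many tip UMIs and without overlap. After scaling it was not called (−0.05, SE 0.0505, edgeR adjusted p = 0.358), so its gradient depends on the scaling. Gsto1, the other omega class gene, was at 605 ± 29.4 and 612 ± 31.8 CPM, overlapping between the ranges, and was called higher after scaling (0.40, SE 0.0489, adjusted p = 1.14e-05) but not without scaling (0.03). Gstm5 was called higher in the fit over all libraries (0.42), but not in the control libraries alone (0.10), without scaling (0.05) or without any 1 library labelled IE-HuR-/- (0.35 each). Sult6b2 was called lower over all libraries but not in the controls alone (−0.90). Cells with many tip UMIs were also deeper, with medians of 11330 to 18850 UMIs per cell against 6800 to 9564, and had a mean of 14.3% to 18.4% mitochondrial UMIs against 11.5% to 15.1%. Their part in these gradients was not tested.

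**Figure D2:**
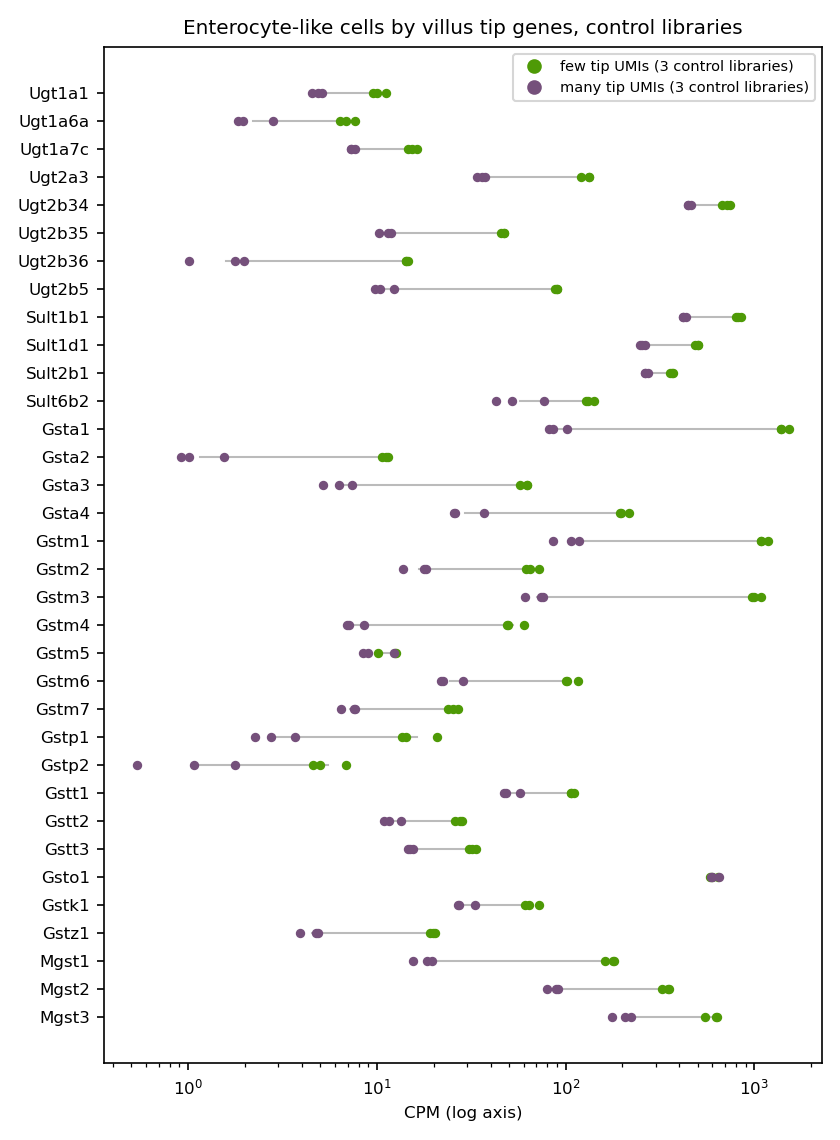
CPM without scaling between libraries (log axis) in enterocyte-like cells with at most 3 (green) or at least 10 (purple) villus tip UMIs, one point for each of the 3 control libraries, with a line between the means. Members with at least 5 CPM in the first range are shown, and for all but Gsto1 and Gstm5 the 2 ranges do not overlap. Overlap was not counted over all genes.

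The comparison of labels asks how the enzymes differ between epithelium with and without the HuR deletion, HuR being an RNA-binding protein that acts on the stability and translation of its target RNAs. In enterocyte-like cells 40 of the 46 members passed the filter on low counts, 11 were called higher, 22 lower and 7 in neither direction. Among all 12481 genes tested 30.4% were called higher and 30.4% lower. The median log2 fold change was −0.32 over the 40 members and −0.01 over all genes. The 6 members that did not pass, Ugt1a9, Ugt2b1, Sult1a1, Sult4a1, Sult5a1 and Gsto2, had 26 to 121 UMIs in all cells. Values below are TMM-scaled CPM, in which libraries were brought to a common scale. Without this scaling the median of all genes was at −0.20, and the split was 6 members higher and 27 lower, among 8210 of all genes called in either direction.

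**Figure D3:**
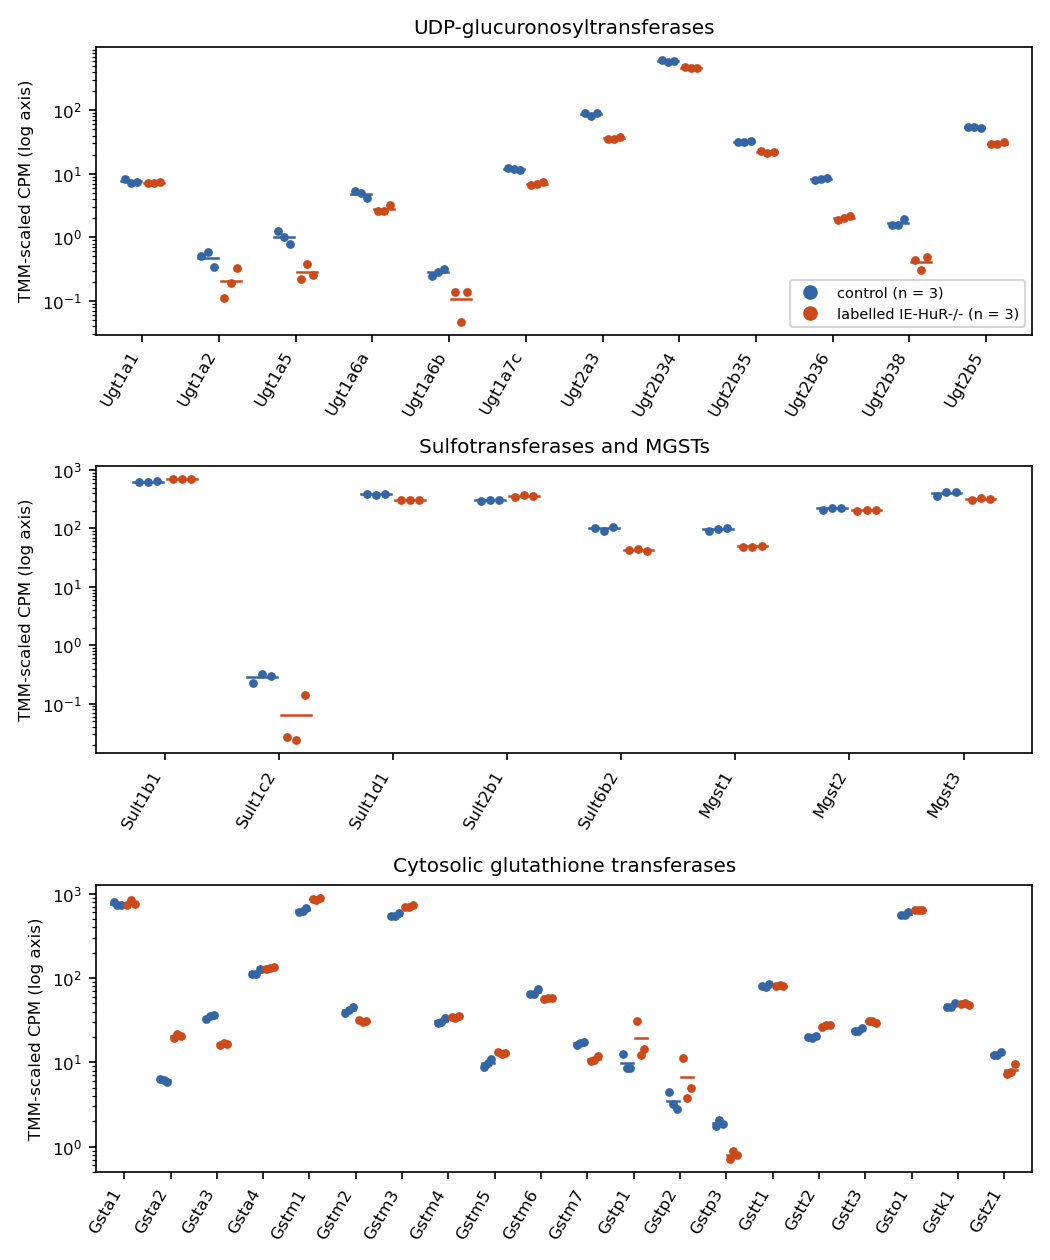
TMM-scaled CPM (log axis) of the 40 tested members in enterocyte-like cells, one point for each of the 3 control libraries (blue) and the 3 libraries labelled IE-HuR-/- (orange), with a line at the mean. All control libraries lie above all others for 22 members, the reverse holds for 10, and the labels overlap for 8. Overlap was not counted over all genes, so these counts have no share beside them.

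The glucuronosyltransferases went 1 way. Of the 12 tested 11 were called lower and none higher, and the exception was Ugt1a1, the enzyme that conjugates bilirubin. Ugt1a1 had 8.36, 7.16 and 7.38 scaled CPM in the control libraries and 7.13, 7.27 and 7.38 in those labelled IE-HuR-/-, with overlap (log2 fold change −0.07, SE 0.0762, edgeR adjusted p = 0.431). By contrast Ugt2a3, an intestinal enzyme active on bile acids, had 90.2, 82.6 and 89.9 scaled CPM in the controls and 35.2, 35.1 and 37.9 in the others. All of its control values lay far above those under the other label (−1.28, SE 0.0469, adjusted p = 3.14e-24). Ugt2b36 fell further, from 7.89, 8.15 and 8.64 to 1.86, 2.01 and 2.17 scaled CPM (−2.02, SE 0.0969, adjusted p = 1.76e-20).

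The Ugt2 members lie in 1 stretch of chr5:86889767-87569027 together with Sult1b1 and Sult1d1, in the mouse assembly GRCm38. In order of position, the log2 fold changes were −0.34 for Ugt2b34, −0.55 for Ugt2b35, −2.02 for Ugt2b36, −0.85 for Ugt2b5, −1.28 for Ugt2a3 and −2.03 for Ugt2b38, and then 0.15 for Sult1b1 and −0.31 for Sult1d1. Ugt2b34, the most abundant Ugt by UMIs, went from 595 ± 20.2 to 470 ± 7.45 scaled CPM (SD, n = 3 each), Ugt2b5 from 53.7 ± 0.571 to 29.9 ± 1.29 and Ugt2b35 from 32.0 ± 0.487 to 21.9 ± 0.899. Ugt2b5 and Ugt2b38 are uncertain as single genes, because 41.7% and 37.4% of the 50-base stretches of their transcripts also occur in another member. Ugt2b38 was at 1.70 ± 0.223 and 0.411 ± 0.0933 scaled CPM. Ugt2b1 had 47 UMIs in all and was not tested.

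The Ugt1 members lie in 1 stretch of chr1:88070800-88220002, where each gene has a first exon of its own and all share the exons that follow. In the annotation 50.3% to 60.6% of their exonic bases belong to more than 1 member. The 9 matching Ugt1 symbols together had 8294 UMIs, against 245980 for the 10 matching Ugt2 symbols. Reads from the shared exons cannot name a gene, and the labels and the methods differ on which end of the RNA the kit reads, so Ugt1 levels are uncertain. Ugt1a7c had 12.3, 11.8 and 11.4 scaled CPM in the control libraries and 6.66, 6.82 and 7.50 in the others (log2 fold change −0.76, SE 0.0694, edgeR adjusted p = 4.22e-12). Ugt1a6a, an enzyme for small phenols, went from 4.87 ± 0.614 to 2.78 ± 0.355 scaled CPM (−0.81, SE 0.111, adjusted p = 6.51e-08). Ugt1a5 was lower as well (−1.85, SE 0.276), as were Ugt1a6b (−1.37) and Ugt1a2 (−1.20), all 3 with means of at most 1.03 scaled CPM. The call for Ugt1a6b was lost without IE-HuR-/- replicate 2 (−1.0, adjusted p = 0.0806) and by DESeq2 (adjusted p = 0.0550), and that for Ugt1a2 without the 5% of cells with most UMIs (−0.81, edgeR adjusted p = 0.0909).

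The sulfotransferases were mixed, with 2 of 5 tested members higher and 3 lower. Sult6b2 had 101, 91.7 and 108 scaled CPM in the control libraries and 42.0, 44.0 and 40.8 in those labelled IE-HuR-/-, with no overlap (log2 fold change −1.24, SE 0.0504, edgeR adjusted p = 6.22e-20). Sult1d1, which acts on catecholamines, went from 382 ± 5.91 to 309 ± 2.91 scaled CPM (−0.31, SE 0.0399). Sult1c2 was lower at very low levels, with 0.284 ± 0.0483 against 0.0636 ± 0.0660 scaled CPM (−2.08, SE 0.520, adjusted p = 0.000742), from 50 and 8 UMIs. Sult2b1 rose from 306 ± 6.83 to 361 ± 16.2 scaled CPM (0.24, SE 0.0418) and Sult1b1, an enzyme for thyroid hormones and phenols, from 629 ± 13.8 to 698 ± 6.06 (0.15, SE 0.0408). Without scaling Sult1b1 was at −0.04 and Sult2b1 at 0.05, and neither was called.

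Among the class alpha transferases, 3 neighbours on chr9:78182774-78355788 differed from each other and from Gsta3 on chromosome 1. Gsta2 had 6.29, 6.25 and 5.93 scaled CPM in the control libraries and 19.3, 21.7 and 20.4 in those labelled IE-HuR-/- (log2 fold change 1.73, SE 0.0641, edgeR adjusted p = 4.23e-24). It was the largest rise among the members. Its near relative Gsta1 overlapped between the labels, with 808, 726 and 732 scaled CPM in the controls and 732, 846 and 757 in the others (0.04, SE 0.0514, adjusted p = 0.477). In cells with many tip UMIs alone Gsta1 was higher under that label (0.53, SE 0.0621, edgeR adjusted p = 1.94e-07). In cells with few it was not called (0.09, adjusted p = 0.262). Gsta3, known in other tissues for steroid isomerase activity, had 32.6, 35.8 and 36.5 scaled CPM in the controls and 16.1, 17.2 and 16.3 in the others (−1.08, SE 0.0537, adjusted p = 6.22e-20). Gsta4 went from 117 ± 9.17 to 133 ± 3.73 scaled CPM (0.19, SE 0.0461), and was not called without scaling (0.00). Of the 50-base stretches of Gsta1 transcripts 46.6% occur in Gsta2, and 36.0% the other way round, so that reads may have been assigned to the wrong gene of this pair or set aside.

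The promoters of the class alpha genes with differing values and of Mgst1, which fell with Gsta3, are shown so that paralogs can be compared. Each runs from 250 bases before to 50 bases after the start site in RefSeq (GRCm38.p6), 5′ to 3′ on the strand of the gene. Capitals mark matches on either strand to 3 motifs, the antioxidant response element core TGACNNNGC, the xenobiotic response element core GCGTG and the HNF1 site GTTAAT. In the 5 promoters no match overlapped a match of another motif.
Gsta1 (chr9:78230419-78230718, + strand): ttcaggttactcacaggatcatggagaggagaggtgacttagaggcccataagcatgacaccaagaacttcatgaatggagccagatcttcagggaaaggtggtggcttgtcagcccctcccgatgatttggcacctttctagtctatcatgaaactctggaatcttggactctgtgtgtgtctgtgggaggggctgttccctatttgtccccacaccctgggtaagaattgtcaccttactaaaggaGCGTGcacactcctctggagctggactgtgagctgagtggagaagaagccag
Gsta2 (chr9:78347096-78347395, − strand): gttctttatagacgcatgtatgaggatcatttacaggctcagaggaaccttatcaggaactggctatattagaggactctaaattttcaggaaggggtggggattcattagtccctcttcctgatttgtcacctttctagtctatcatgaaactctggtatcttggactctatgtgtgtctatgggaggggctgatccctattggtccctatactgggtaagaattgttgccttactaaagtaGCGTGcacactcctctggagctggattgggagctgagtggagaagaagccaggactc
Gsta3 (chr1:21240335-21240634, + strand): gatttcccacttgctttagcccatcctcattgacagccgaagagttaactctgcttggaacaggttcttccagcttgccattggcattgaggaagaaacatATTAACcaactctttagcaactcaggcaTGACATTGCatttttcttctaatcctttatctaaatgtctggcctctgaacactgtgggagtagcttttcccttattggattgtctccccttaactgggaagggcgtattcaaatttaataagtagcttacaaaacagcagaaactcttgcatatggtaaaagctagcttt
Mgst1 (chr6:138140277-138140576, + strand): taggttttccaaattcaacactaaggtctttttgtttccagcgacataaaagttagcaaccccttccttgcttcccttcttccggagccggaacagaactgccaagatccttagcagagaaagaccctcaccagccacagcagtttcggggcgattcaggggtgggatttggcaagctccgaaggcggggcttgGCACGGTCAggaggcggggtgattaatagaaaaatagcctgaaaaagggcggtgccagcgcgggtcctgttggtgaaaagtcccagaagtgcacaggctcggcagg
Ugt2a3 (chr5:87337146-87337445, − strand): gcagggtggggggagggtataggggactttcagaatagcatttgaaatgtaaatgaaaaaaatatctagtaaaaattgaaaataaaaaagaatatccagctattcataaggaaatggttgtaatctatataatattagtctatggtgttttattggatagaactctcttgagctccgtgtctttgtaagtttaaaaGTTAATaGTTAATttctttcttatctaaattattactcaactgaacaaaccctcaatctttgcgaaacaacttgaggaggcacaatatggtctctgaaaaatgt
The first 2 sequences had 238 identical bases of 300 after alignment (79.3%), and in both GCGTG lay at the start site, 2 bases before it in Gsta1 and 7 in Gsta2.

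RefSeq promoters were found for 42 of the 46 members, 53 sequences in all. TGACNNNGC occurred in 4 of the 53 (7.55%) and in 12.4% of all 32851 promoters, and the 4 were those of Gsta3, Gstm5, Gstm7 and Mgst1. GCGTG occurred in 13 (24.5%), with 32.4% among all promoters. GTTAAT occurred in 7 (13.2%), with 7.10% among all promoters, and the genes were Gsta3, Sult1a1, Sult1d1, Ugt1a1, Ugt1a6a, Ugt1a9 and Ugt2a3, the last with 2 copies. A match is only a description of these letters. The genes with TGACNNNGC had log2 fold changes of both signs, −1.08 for Gsta3, −0.98 for Mgst1, −0.62 for Gstm7 and 0.39 for Gstm5.

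The class mu genes share chr3:107895821-108044894, and 4 of the 7 were called higher and 3 lower. Gstm1 had 609, 624 and 669 scaled CPM in the control libraries and 871, 852 and 895 in those labelled IE-HuR-/- (log2 fold change 0.46, SE 0.0433, edgeR adjusted p = 7.63e-12). Gstm3 rose from 561 ± 28.4 to 704 ± 24.4 scaled CPM (0.33, SE 0.0435) and Gstm5 from 9.86 ± 1.03 to 12.8 ± 0.268 (0.39, SE 0.0678). Gstm4 was at 30.9 ± 2.63 and 34.4 ± 1.09 (0.16, SE 0.0521, adjusted p = 0.00917). That call did not hold when 1 library was left out, namely control replicate 1 (0.10) or 2 (0.11) or replicate 3 of the other label (0.14), nor in cells with many tip UMIs alone (0.22), and the labels overlapped. Gstm7 fell from 16.9 ± 0.770 to 10.9 ± 0.735 scaled CPM (−0.62, SE 0.0620), Gstm2 from 42.3 ± 3.42 to 30.7 ± 0.801 (−0.46, SE 0.0512) and Gstm6 from 67.5 ± 5.0 to 57.4 ± 0.440 (−0.23, SE 0.0466). Gstm3 shares 15.8% of its 50-base stretches with other members and Gstm1 shares 8.90%, and the other class mu genes at most 3.5%.

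In the class pi cluster Gstp1 and Gstp2 rested on 1 library. Gstp1 had 12.4, 8.52 and 8.60 scaled CPM in the control libraries and 31.2, 12.1 and 14.3 in those labelled IE-HuR-/-, and Gstp2 had 4.51, 3.23 and 2.78 against 11.4, 3.74 and 4.91. IE-HuR-/- replicate 1 was the highest for both, the labels overlapped, and neither was called (0.94, SE 0.468, edgeR adjusted p = 0.156 for Gstp1). Of the 50-base stretches of Gstp2 49.1% occur in Gstp1. Gstp3 went the other way, from 1.89 ± 0.158 to 0.801 ± 0.0952 scaled CPM (−1.23, SE 0.174, adjusted p = 1.13e-07).

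Of the class theta genes Gstt2 rose from 20.04 ± 0.669 to 27.2 ± 1.09 scaled CPM (0.44, SE 0.0516) and Gstt3 from 24.02 ± 1.08 to 30.6 ± 0.809 (0.35, SE 0.0498), while Gstt1 was at 81.8 ± 3.21 and 81.4 ± 0.763 (−0.01, edgeR adjusted p = 0.907). Gsto1 was at 574 ± 29.5 and 638 ± 1.59 scaled CPM (0.15, SE 0.0425, adjusted p = 0.00231), a call that was lost without control replicate 2 (0.11) and without scaling (−0.03). Gstz1 fell from 12.7 ± 0.620 to 8.20 ± 1.17 (−0.63, SE 0.0753). Gstk1, the mitochondrial and peroxisomal enzyme, was not called (47.4 ± 3.18 and 49.2 ± 1.07).

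The membrane-bound enzymes were lower or not called. Mgst1 had 90.8, 99.6 and 101 scaled CPM in the control libraries and 48.6, 48.9 and 50.1 in the others, without overlap (log2 fold change −0.98, SE 0.0452, edgeR adjusted p = 5.49e-21). Mgst3 fell from 401 ± 31.1 to 317 ± 14.5 scaled CPM (−0.34, SE 0.0487). Mgst2, which like Mgst3 can form leukotriene C4, was at 220 ± 8.81 and 206 ± 5.96 (−0.09, SE 0.0416, adjusted p = 0.0643).

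**Figure D4:**
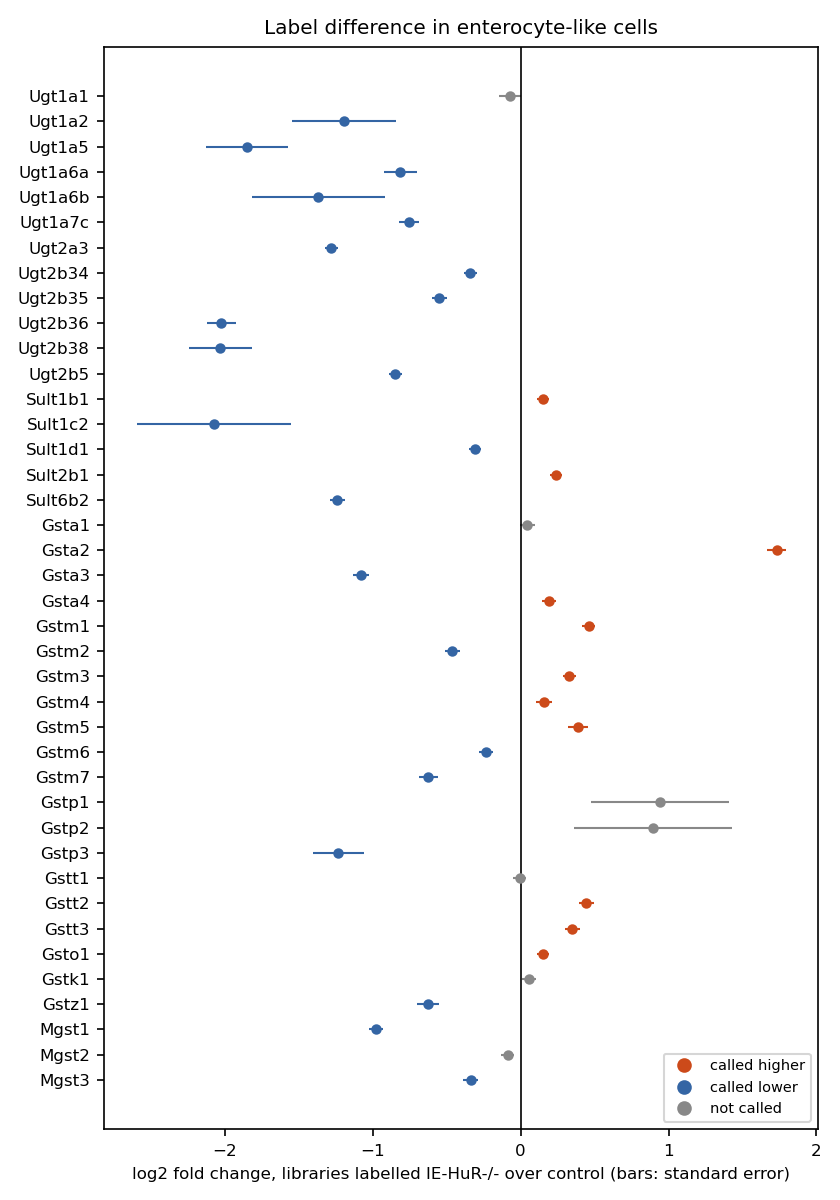
Log2 fold change (libraries labelled IE-HuR-/- over control) of the 40 tested members in enterocyte-like cells, ordered by family, with standard errors as bars and colours for the edgeR call. All 12 Ugt members lie below 0, from −2.03 to −0.07, whereas the Sult and Gst families lie on both sides, with Gsta2 at 1.73.

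Other measures moved with the label in enterocyte-like cells. The summed villus tip genes were at 4587 to 5311 CPM in the control libraries and at 6208 to 6736 CPM in the others, and epithelial markers at 14100 to 14620 and 18150 to 19100 CPM. Enteroendocrine markers were at 86.9 to 113 and 150 to 158 CPM with none of the 15 at 0. T or NK markers were at 63.0 to 104 and 107 to 133 CPM, and B or plasma markers at 1.19 to 3.17 and 7.20 to 12.6 CPM with up to 2 of 8 at 0 in a control library. Their part in the label differences was not tested. The labels were also compared within each tip range, but the ranges are set by the same tip genes, so this cannot separate their part. In cells with few tip UMIs alone 31 members were called, 9 higher and 22 lower, among 5587 of all genes. Of these, 29 were also called over all enterocyte-like cells. In cells with many tip UMIs alone 30 members were called, 15 higher and 15 lower, among 5653 of all genes. After scaling, the lean to lower values was absent in cells with many tip UMIs, and neither range was fitted alone without scaling. The directions of the calls among all genes were not counted in either range, so these splits have no share beside them. Of the 30 members called in cells with many tip UMIs, 25 were also called over all enterocyte-like cells, Gstm6 in the other direction. Of the 33 calls over all enterocyte-like cells, 20 kept their direction and their call in each of 16 alternative fits. Gstp3, Ugt1a5 and Sult1c2 kept theirs wherever they were tested, and did not pass the filter on low counts in at least 1 of those fits.

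The label difference was set side by side in the 2 ranges of tip UMIs. The difference between ranges was tested by an interaction term and called for 24 of 37 members, 17 more positive and 7 more negative in cells with many tip UMIs. Among all genes 18.7% were called more positive and 7.03% more negative. The balance between the directions rested on the scaling and on the control libraries. Without scaling 8 were more positive and 9 more negative. The split was 8 and 9 when control replicate 1 was left out, 10 and 8 for control replicate 2 and 8 and 8 for control replicate 3, with the median of all genes at −0.07, −0.07 and −0.09 in place of 0.05. Calls of 8 members, namely Gstk1, Gstm2, Gstm5, Gstm6, Gstt1, Mgst2, Mgst3 and Ugt2a3, held in each of the 9 alternative fits run. In the 2 separate comparisons, 15 members were called lower in both ranges and 7 higher in both. How many of all genes were called in both was not counted, so these counts have no share beside them.

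Ugt2a3 fell more steeply where tip UMIs were many. Before scaling it went from 37.3, 33.8 and 35.9 CPM in the controls to 9.10, 9.94 and 9.80 CPM in cells with many tip UMIs, and from 133, 120 and 134 to 54.8, 55.9 and 59.7 CPM in cells with few (log2 fold changes −1.72 and −1.04, interaction −0.57, SE 0.0802, edgeR adjusted p = 8.38e-07). Mgst3 did likewise (−0.53 and −0.22). Sult6b2 had −2.56 and −0.82, but its interaction (−1.62, SE 0.375, adjusted p = 0.0448) did not pass when 1 library was left out, unless that library was control replicate 3 (adjusted p of 0.0511 to 0.156 for the other 5). The 17 members that were more positive there were glutathione transferases and the sulfotransferases Sult1b1, Sult1d1 and Sult2b1. Gstm6 was at 0.27 in cells with many tip UMIs and −0.30 in those with few, Gstk1 at 0.45 and −0.10, Gstt1 at 0.27 and −0.13, and Mgst2 at 0.21 and −0.13. For these 4 members the sign differed between the ranges, but Gstk1 was not called in cells with few (edgeR adjusted p = 0.133). Before scaling, Gstm6, Gstt1 and Mgst2 overlapped between the labels in cells with many tip UMIs. Gstm1 rose in both, by 1.0 and 0.46, as did Gsta2, by 2.39 and 1.66.

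**Figure D5:**
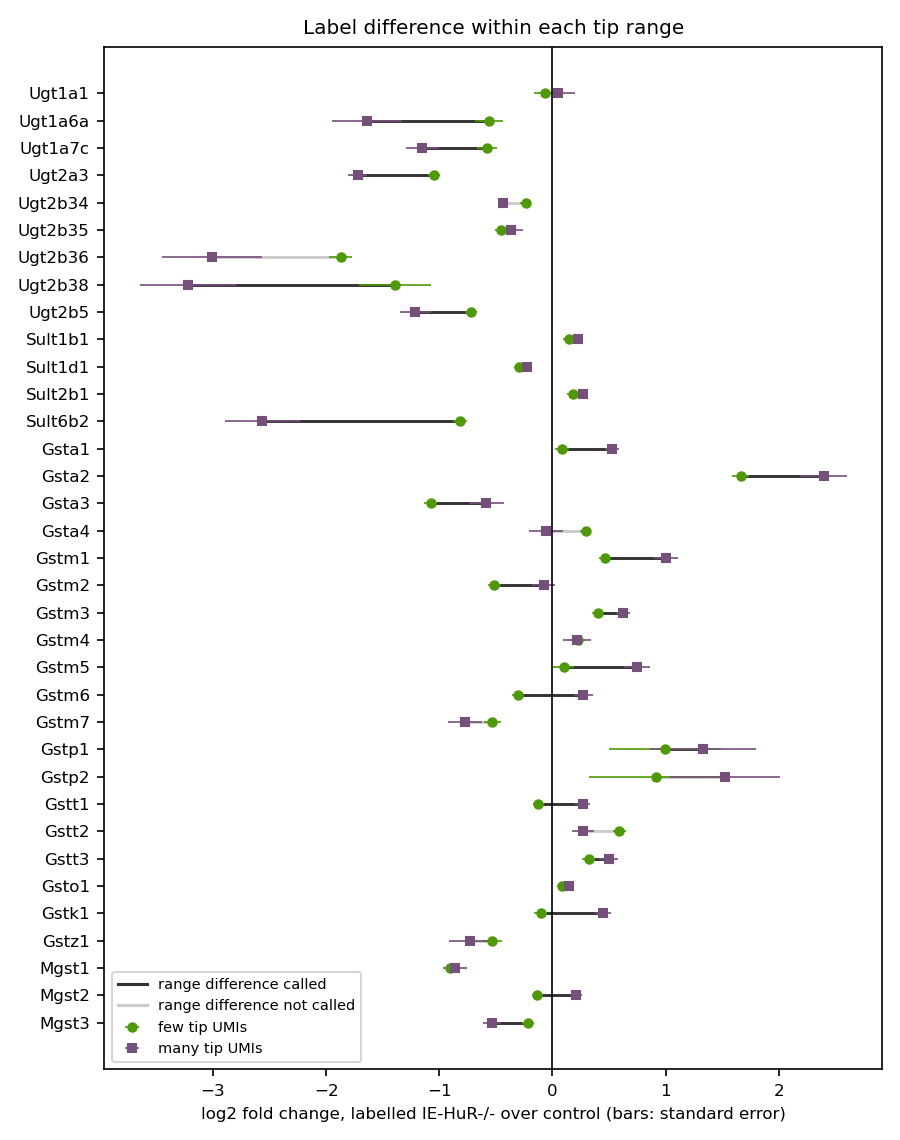
Log2 fold change (libraries labelled IE-HuR-/- over control) in enterocyte-like cells with at most 3 (green circles) and at least 10 (purple squares) villus tip UMIs, with standard errors, for the 35 members tested in both. A dark line marks the 24 members whose difference between ranges was called, among them Ugt2a3 (−1.04 and −1.72) and Gstk1 (−0.10 and 0.45).

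In goblet-like cells 33 members were tested, 1 was called higher and 17 lower, while 15% of all genes were called higher and 13% lower. The median log2 fold change was −0.60 over the 33 members and −0.02 over all genes. All 5 Ugt2 members tested were lower. Ugt2a3 had 50.5, 46.2 and 54.0 scaled CPM in the control libraries and 18.0, 10.97 and 7.48 in the others (log2 fold change −2.02, SE 0.194, edgeR adjusted p = 9.67e-07). Ugt2b36 was at −2.58, Ugt2b5 at −1.84, Ugt2b35 at −1.34 and Ugt2b34 at −0.73. Of the Ugt1 members Ugt1a7c (−1.04) and Ugt1a1 (−1.03) were called, the latter not by DESeq2 (adjusted p = 0.103) and not when 1 library was left out, either of control replicates 1 and 2 or of replicates 2 and 3 of the other label, where it lay between −1.08 and −0.74. Sult6b2 (−1.21), Sult1d1 (−0.60) and Sult1b1 (−0.37) were lower.

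Among the goblet-like glutathione transferases Gsta3 (−1.63), Gstm7 (−1.56), Gstm2 (−0.95), Mgst1 (−0.90), Gstm6 (−0.82), Gstt1 (−0.69) and Mgst3 (−0.40) were lower, Mgst3 not without the 5% of cells with most UMIs (−0.18). Gsta2 had 2.80, 0.828 and 1.43 scaled CPM in the controls and 4.62, 4.39 and 3.29 in the others (1.25, SE 0.389, edgeR adjusted p = 0.0183). Its call was lost under DESeq2 (adjusted p = 0.0506) and when 1 library was left out, control replicate 2 (0.94) or 3 (1.15) or replicate 1 (1.16) or 2 (1.22) of the other label. Gsta3, Gstm7, Ugt1a7c, Ugt2b36 and Ugt2b5 kept their calls wherever tested, but did not pass the filter on low counts in at least 1 alternative fit. The enterocyte markers in goblet-like cells moved with the label, at 50710 to 52740 CPM in the control libraries and 32820 to 42970 CPM in the others with none of the 16 at 0. Goblet-like cells were also deeper in the controls, with medians of 12830 to 15590 UMIs per cell against 6493 to 10340. The part of markers and depth in these falls was not tested. Gsta4, the member above its enterocyte-like level in goblet-like cells, was at 247 ± 40.3 and 257 ± 34.9 scaled CPM and overlapped.

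In enteroendocrine-like cells 2 of 26 members were called lower (0.459% of all genes). Ugt2a3 had 31.1, 47.6 and 39.3 scaled CPM in the controls and 2.75, 14.6 and 12.5 in the others (log2 fold change −1.87, SE 0.340, edgeR adjusted p = 0.0113). Mgst1 had 27.7, 36.3 and 35.1 against 1.38, 10.0 and 14.6 (−1.83, SE 0.376, adjusted p = 0.0264). Neither passed without control replicate 2 (−1.73 for Ugt2a3 and −1.76 for Mgst1), and Mgst1 did not pass without control replicate 3 (−1.78) or IE-HuR-/- replicate 2 (−1.90). Without the 5% of cells with most UMIs both fell under the filter on low counts, and no member was called, with 23 called among all genes. The enterocyte markers overlapped between the labels, at 35680 to 40690 and 25200 to 42100 CPM, and their part in these falls was not tested.

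In progenitor-like cells 2 of 17 members were called lower (0.125% of all genes). Mgst1 had 471, 350 and 560 scaled CPM in the controls and 185, 193 and 251 in the others (log2 fold change −1.15, SE 0.230, edgeR adjusted p = 0.0135). Gsta3 had 34.5, 81.5 and 33.1 against 2.20, 9.21 and 0 (−3.53, SE 0.695, adjusted p = 0.0124). The enterocyte markers were at 2913 to 8032 CPM in the controls and 9480 to 24110 CPM in the others, with none of the 16 at 0. Their part in both falls was not tested. The classes held 12 to 37 cells per library. Without the 5% of cells with most UMIs Mgst1 was at −0.16 (adjusted p = 0.950) and no member was called, with 0 called among all genes. Both calls were lost without control replicate 3 (Mgst1 −0.97, Gsta3 −3.76) and without IE-HuR-/- replicate 1 (−1.06 and −3.16), that of Gsta3 without control replicate 2 (−3.03) and that of Mgst1 without IE-HuR-/- replicate 2 (−1.09).

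In tuft-like cells none of 26 members was called by edgeR, with 3 at an unadjusted p under 0.05 and none by DESeq2, and 0.767% of all genes were called. Mgst3, the member that stood out there, was at 1827 ± 76.5 CPM in the control libraries and 1639 ± 117 CPM in the others before scaling (SD, n = 3). T or NK-like cells are not the epithelial cells in which villin-Cre acts. In them 2 of 31 members were called lower (0.971% of all genes). The median log2 fold change was −0.58 over the 31 members and −0.01 over all genes. Ugt2a3 had 15.4, 30.2 and 16.7 scaled CPM in the controls and 6.23, 4.56 and 4.56 in the others (log2 fold change −2.04, SE 0.304, edgeR adjusted p = 0.0182), and Ugt2b5 had 11.9, 17.4 and 9.46 against 5.25, 2.99 and 2.90 (−1.83, SE 0.295, adjusted p = 0.0133). Both were lost without IE-HuR-/- replicate 2 (−1.96 and −1.70) or IE-HuR-/- replicate 3 (−1.97 and −1.69), and Ugt2a3 without IE-HuR-/- replicate 1 (−2.20). The summed enterocyte markers of these cells overlapped, at 10200 to 21250 and 10150 to 12840 CPM. Ugt2a3 (−1.28) and Ugt2b5 (−0.85) were also lower in enterocyte-like cells, and the part of enterocyte RNA in both falls was not tested.

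Genes that supply or follow these enzymes were counted in enterocyte-like cells, against the 30.4% of genes called in each direction. Besides Gclc and Arsb, which changed by over 1 on the log2 scale, the genes named here were chosen after their values were seen. For UDP-glucuronate supply 3 of 5 tested genes were higher and none lower, with a median log2 fold change of 0.24. Ugdh, the dehydrogenase that makes UDP-glucuronate, was among them, at 427 ± 5.64 and 574 ± 6.99 scaled CPM. For PAPS supply none of 6 was higher and 2 were lower. For glutathione supply and turnover 5 of 11 were higher and 4 lower (median 0.11). Gclc, the catalytic subunit of the first enzyme of glutathione synthesis, had 45.7, 45.0 and 46.7 scaled CPM in the controls and 102, 96.7 and 95.4 in the others (1.10, SE 0.0435, edgeR adjusted p = 3.26e-23), while Gclm, its modifier subunit, was at 271 ± 2.25 and 239.7 ± 5.6.

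Of the conjugate efflux transporters 2 of 5 were higher and 3 lower (median −0.27). Abcg2 was at 204 ± 2.15 and 371 ± 9.35 scaled CPM and Abcc3 at 39.4 ± 1.16 and 66.5 ± 3.37, whereas Abcc2 was at 735 ± 28.9 and 610 ± 14.4. For deconjugation 1 of 4 was higher and 3 lower, among them Arsb, a lysosomal sulfatase, from 2.19 ± 0.0336 to 0.815 ± 0.146 scaled CPM (log2 fold change −1.42, SE 0.168, edgeR adjusted p = 2.48e-09). Of the nuclear receptors and regulators 3 of 14 were higher, 6 lower and 5 not called (median −0.10). Hnf4a was at 275 ± 5.26 and 353 ± 12.2 scaled CPM, Cdx2 at 86.2 ± 2.72 and 59.5 ± 1.59, and Ahr, the xenobiotic receptor, at 11.2 ± 0.226 and 10.9 ± 0.237. Of other conjugating and hydrolysing enzymes 2 of 6 were higher and 3 lower.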

How the data were processed

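Per the file headers, the deposited counts (UMIs per gene and barcode) were written by Cell Ranger 6.1.2. The submitters' processing notes name Cell Ranger, Seurat and mm10. The methods instead name an older version, a human reference and a 3′ kit, and the labels a 5′ kit. The lowest barcode total was 500 UMIs, and barcodes with fewer than 200 genes were removed here (275).

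Cells were gated on marker genes with thresholds set after seeing the cell distributions, without regard to label or members. No doublet caller was run. The 77 cells that passed several gates were left out, and an alternative drops the 5% of cells with most UMIs. An enterocyte-like cell needed at least 2000 UMIs. The members, gene lists and tests were chosen with earlier results of these data known.

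UMIs were summed per library and class and tested with edgeR 4.0.16 (quasi-likelihood F test, TMM factors, filterByExpr with a count minimum of 10 and a total of 15) in R 4.3.3, with adjustment over all genes by Benjamini-Hochberg. Classes and tip ranges were compared with the library as a block, labels without a block. The genes used for gates were left out of the shares of all genes called between classes. The p-values for labels cover only the spread between 3 libraries per label. Those for classes and tip ranges cover the spread of differences within a library, over the libraries of both labels. Alternatives were no TMM factors, no filter, DESeq2 1.42.0, stricter cell filters, thinned totals, a stricter enterocyte gate, 1 label only, each tip range alone, the replicate number as a block, and leaving out each library. The scripts were tested on simulated data.

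Named with values were members with at least 5 CPM in enterocyte-like cells, members called in any label comparison or called higher in another class than in enterocyte-like cells, and pathway genes called there with a log2 fold change over 1 in size. Levels within classes are unscaled CPM unless called scaled. Each edgeR SE, also in the figures, is the size of the log2 value divided by the square root of its F statistic.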

Additional observations from a re-analysis of the deposited data

Results flagged for a closer look

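For 24 members the label difference in enterocyte-like cells differed between cells with at least 10 and cells with at most 3 villus tip UMIs, by edgeR's interaction term with Benjamini-Hochberg adjustment. The interaction values are on the log2 scale, and negative values mean that the libraries labelled IE-HuR-/- were lower relative to control in cells with many tip UMIs than in cells with few. Among the glucuronosyltransferases they were −1.73 for Ugt2b38, −0.97 for Ugt1a6a, −0.57 for Ugt2a3, −0.46 for Ugt1a7c and −0.39 for Ugt2b5. Among the sulfotransferases they were −1.62 for Sult6b2, 0.18 for Sult1d1, 0.19 for Sult1b1 and 0.20 for Sult2b1. The microsomal Mgst3 had −0.21 and Mgst2 0.45. The class alpha genes had 0.55 (Gsta1), 0.60 (Gsta3) and 0.84 (Gsta2), and the class mu genes 0.33 (Gstm3), 0.55 (Gstm2), 0.65 (Gstm1), 0.68 (Gstm6) and 0.76 (Gstm5). Gsto1 had 0.17, Gstt3 0.28, Gstp1 0.46, Gstt1 0.50 and Gstk1 0.66.

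Calls of 8 of these members held in each of 9 alternative fits, and the other 16 did not hold in at least 1. Groups of 3 libraries were too small for a search for single libraries that stand apart.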

How the results depend on the processing

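Of the alternative values for single members, 3184 kept their direction and their call, 230 lost the call and 9 changed direction. Without TMM factors the label difference in enterocyte-like cells was −0.028 for Gstm4, −0.036 for Sult1b1 and −0.035 for Gsto1, and against enterocyte-like cells Gstt1 was at 0.14 in tuft-like, Gstt2 at 0.21 in enteroendocrine-like and 0.51 in T or NK-like and Mgst3 at 0.030 in progenitor-like cells. In cells with many tip UMIs alone the label difference was 0.27 for Gstm6 and −0.057 for Gsta4. For these the cause was not tested.

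Without TMM factors the members called between tip ranges were 0 higher and 34 lower, among 9285 of all genes called, with the median of all genes at −0.43. Without the filter on low counts the label difference was called for 3 members in tuft-like, 4 in enteroendocrine-like and 13 in T or NK-like cells. Among all genes 168, 377 and 901 were called in these fits. In T or NK-like cells DESeq2 called 7 members, among 324 of all genes. The fit there without the 5% of cells with most UMIs called 5 members, among 466 of all genes. Without those cells the counts were 0 in enteroendocrine-like and 0 in progenitor-like cells, among 23 and 0 of all genes. In the libraries labelled IE-HuR-/- alone 14 members were called between tuft-like and enterocyte-like cells, among 5649 of all genes. For these counts too the cause was not tested.

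Leaving out 1 library gave label differences for 31 to 33 members in enterocyte-like, 16 to 19 in goblet-like, 0 to 4 in tuft-like, 0 to 2 in enteroendocrine-like, 0 to 4 in progenitor-like and 0 to 5 in T or NK-like cells, and interactions for 16 to 21. Over all genes the label counts were 6913 to 7476 in enterocyte-like, 2049 to 2514 in goblet-like and 21 to 81 in tuft-like cells. They were 55 to 113 in enteroendocrine-like, 9 to 140 in progenitor-like and 44 to 613 in T or NK-like cells. Against enterocyte-like cells the ranges were 31 to 33 for goblet-like, 22 to 32 for tuft-like, 35 to 36 for enteroendocrine-like, 32 to 35 for progenitor-like and 37 to 38 for T or NK-like cells, and 35 to 36 for the tip ranges. All genes called there were 5692 to 5900 for goblet-like, 6659 to 7091 for tuft-like and 9447 to 9816 for enteroendocrine-like cells. For progenitor-like cells they were 8378 to 8659, and for T or NK-like cells 12365 to 12613.

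Replicate numbers did not pair the libraries, since same-numbered libraries had correlations of their deviations of 0.02, −0.10 and −0.09. With the replicate block 33 members were called in enterocyte-like, 19 in goblet-like and 0 in T or NK-like cells, among 7481, 2634 and 62 of all genes. Depth limits the tuft-like, enteroendocrine-like and progenitor-like classes, in which 17 to 26 members passed the filter for the label comparison.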

Other observations

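The 30163 cells that passed no gate held 7.08% of the members' UMIs. In the control libraries the 33 members with at least 5 CPM in enterocyte-like cells had a median of 58.9% of that level in these cells, from 42.5% to 86.5%, and the summed enterocyte markers had 43.1%. Ugt1a6a (86.5%) and Sult6b2 (86.4%) were the highest of these members. None of these 33 members was above its enterocyte-like level there.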
